A study of Arabidopsis thaliana with 4 samples.

Results

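The clade A protein phosphatases type 2C (PP2Cs) of Arabidopsis thaliana are a family of 9 genes, ABI1, ABI2, HAB1, HAB2, AHG1, AHG3, HAI1, HAI2 and HAI3. They were chosen by gene identifier as members of this clade, and all 9 were found among the 28607 genes that could be joined across the libraries. RNA was immunoprecipitated with an anti-Myc antibody from crosslinked nuclei of plants aged 3 weeks and sequenced, to find RNA bound by CLF (CURLY LEAF). CLF is the subunit of a Polycomb repressive complex that methylates histone H3. The 2 CLF RIP libraries came from clf-28 mutant plants, in the Col-0 background, that carried Myc-tagged CLF. Per the labels, the tagged protein restored the normal appearance of the mutant. The promoter that drives it and the number of transgenic lines are not given in the sources used here. The 2 control RIP libraries came from wild-type Col-0 plants without the tag, taken with the same antibody. All plants were grown on sucrose-containing medium in long days.

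Clade A PP2Cs are the brakes of the abscisic acid (ABA) pathway, the hormone route by which plants answer drought, salt and cold and hold seeds dormant. Without ABA they bind SnRK2 protein kinases and keep them dephosphorylated and inactive. With ABA, the PYR/PYL/RCAR receptors close over the hormone and dock into the active site of the phosphatase, the kinases are released, and they phosphorylate ABF transcription factors and ion channels. Several of the phosphatase genes are themselves induced by ABA, which gives the pathway a negative feedback.

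Group membership was read from the labels. The deposited tables are named the other way round, and should the labels be in error, higher and lower would change places throughout. CLF itself does not settle this, since it was listed at 4.24 and 25.7 FPKM (fragments per kilobase of transcript, scaled to sequencing depth) in the CLF RIP libraries and at 25.9 and 27.1 FPKM in control RIP. The scaling depth, estimated from loci with 1 read, was 4.18 and 4.16 M reads in the CLF RIP libraries and 9.78 and 9.52 M reads in the control RIP libraries. A low value thus rests on fewer reads in the CLF RIP. No input libraries are among the 4, so the level of a transcript in the plant and its recovery in the precipitate cannot be told apart. In such bulk samples, fewer cells of a type and less RNA per cell cannot be told apart either. Whether the libraries within a group stem from different plants is not labelled, and the spread behind each p-value may be technical.

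The labels name whole plants, and leaf transcripts were abundant in both groups. The 4 joined leaf mesophyll markers of the 5 listed (RBCS1A, CAB2, CAB3 and RCA) summed to 673 to 682 FPKM in CLF RIP, against 2188 to 2226 FPKM in control RIP, and all 4 fell by limma, at adjusted p of 0.0155 to 0.0383. The 4 guard cell markers summed to 33.2 and 51.5 FPKM in CLF RIP, against 20.5 to 26.7 FPKM in control RIP, and 0 of 4 passed. The 5 root markers summed to 5.40 to 5.75 FPKM over all libraries, with the root hair genes RSL4 and EXPA7 listed at 0 throughout. The 5 seed storage markers stayed between 0.139 and 0.475 FPKM in sum. The 5 pollen and flower markers summed to 6.27 and 9.53 FPKM in CLF RIP, against 19.8 and 37.1 FPKM in control RIP. The part of these shifts in the results below was not tested.

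Of the 9 genes, 7 were listed above 0 in all 4 libraries and entered the test, which required at least 1 FPKM in at least 2 libraries. HAI2 passed this filter through its CLF RIP values alone. AHG1 and HAI3 did not pass it. All 7 fold changes lay above 0, as did 63.2% of those of all genes tested, with a median log2 fold change of 0.65, beside 0.25 over all 14801 genes tested. By limma with Benjamini-Hochberg adjustment over all genes, 0 of 7 passed a threshold of 0.05, where 0.75% of all genes tested were called higher and 0.622% lower. At an unadjusted p under 0.05, 4 of 7 (HAI2, ABI1, ABI2 and HAB1) lay higher in the CLF RIP, beside 17.0% of all genes tested, and 24.7% in either direction. The libraries of the 2 groups did not overlap, with CLF RIP above, for 5 of 7 genes, beside 40.5% of all genes tested, and for 0 of 7 with CLF RIP below, beside 18.9%. Because a gene low in 1 group can enter the test only by being high in the other, these counts describe the genes that entered and not the whole family. The 4 of 7 at an unadjusted p under 0.05 became 2 of 7 without control RIP replicate 1, beside 11.7% of all genes in either direction, and 2 of 7 without control RIP replicate 2, beside 11.5%. It became 3 of 6 without CLF RIP replicate 1, beside 25.04%, and 1 of 6 without CLF RIP replicate 2, beside 24.5%.

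**Figure D1:**
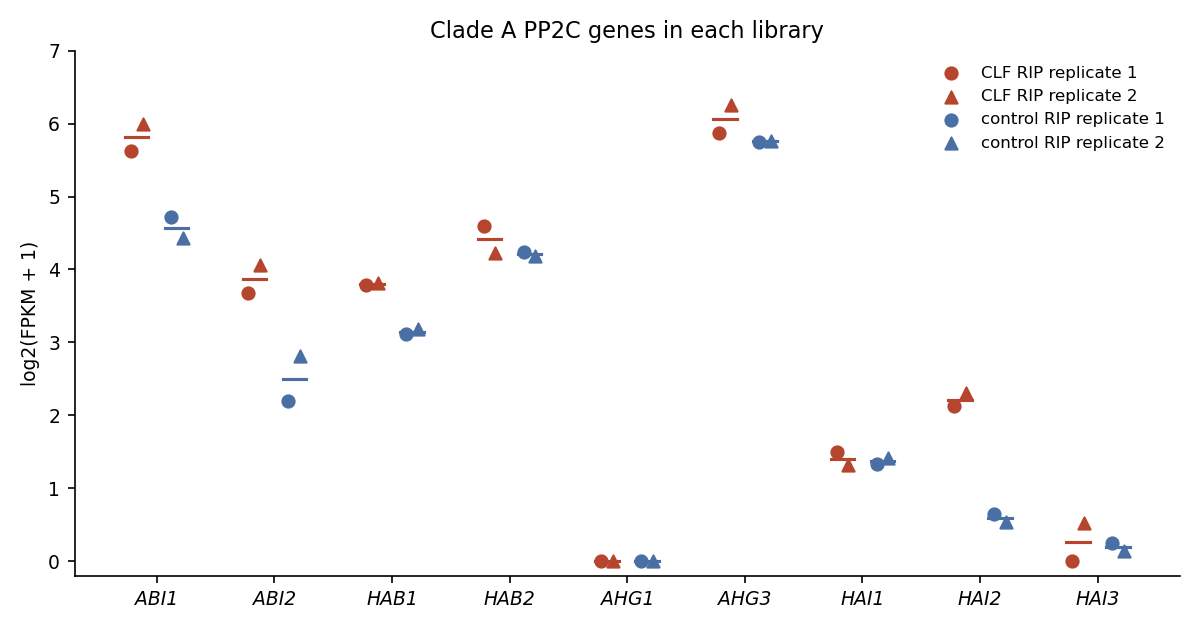
Level of each clade A PP2C gene as log2(FPKM + 1) in the 2 CLF RIP libraries (red) and the 2 control RIP libraries (blue), with a short line at the mean of each group. ABI1, ABI2, HAB1, AHG3 and HAI2 have both CLF RIP libraries above both control RIP libraries, while HAB2 and HAI1 overlap, and AHG1 and HAI3 lie at or near 0.

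All 9 genes are protein-coding, and their positions are given in TAIR10, from the outermost ends of the loci that held them in the 4 libraries. ABI1 and ABI2 are a closely related pair, named for mutants insensitive to ABA, in which a dominant mutation leaves the phosphatase active in the presence of the hormone. ABI1 (AT4G26080, chromosome 4, bases 13219883 to 13222296) had 48.6 and 62.6 FPKM in CLF RIP, against 25.3 and 20.6 FPKM in control RIP. Both CLF RIP values lay above both control RIP values, and the gap between the groups was wider than the spread within either. The means were 55.6 ± 9.93 FPKM in the CLF RIP and 22.96 ± 3.37 FPKM in the control RIP (SD, n = 2 each). Its log2 fold change was 1.24 (SE 0.24, 95% interval 0.54 to 1.93), and it missed the threshold with a limma adjusted p of 0.115.

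ABI2 (AT5G57050, chromosome 5, bases 23087123 to 23089627) had 11.8 and 15.7 FPKM in CLF RIP, against 3.58 and 6.01 FPKM in control RIP. The groups did not overlap, and the control RIP libraries differed more from each other, relative to their level, than the CLF RIP libraries. The log2 fold change of ABI2 was 1.37 (SE 0.33, 95% interval 0.40 to 2.33), with a limma adjusted p of 0.144. ABI1 stood above ABI2 in every library, by a ratio of 4.12 and 3.99 in the CLF RIP libraries and of 7.07 and 3.42 in the control RIP libraries. That ratio overlapped between groups, so the distance between the pair did not separate them.

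HAB1 and HAB2, named for their likeness to ABI1 and ABI2, form the next pair. HAB1 is a major negative regulator of ABA responses. HAB1 (AT1G72770, chromosome 1, bases 27390022 to 27393479) had 12.8 and 13.0 FPKM in CLF RIP, against 7.64 and 8.08 FPKM in control RIP. Its libraries lay close together within each group and apart between groups. In the control RIP libraries alone, short loci under serial numbers also lay inside HAB1, of 235 and 81 bp in replicate 1 and of 254 and 147 bp in replicate 2, and their reads are not part of these values. The HAB1 log2 fold change was 0.65 (SE 0.20, 95% interval 0.09 to 1.22), and the limma adjusted p was 0.174. HAB2 (AT1G17550, chromosome 1, bases 6034362 to 6037493) had 23.3 and 17.6 FPKM in CLF RIP, against 17.8 and 17.2 FPKM in control RIP. Its groups overlapped, since CLF RIP replicate 2 lay between the control RIP libraries. The HAB2 log2 fold change was 0.20 (SE 0.24, 95% interval -0.49 to 0.89), with a limma adjusted p of 0.629, and it turned to -0.12, -0.070 and -0.21 under the 3 other scalings. HAB2 was the higher of the pair in every library, by a ratio of 1.82 and 1.35 in the CLF RIP libraries and of 2.33 and 2.13 in the control RIP libraries. Those ratios did not overlap between groups, and their difference was not tested. The short loci inside HAB1, present in control RIP alone, do not enter them.

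AHG3, also called PP2CA, and AHG1 were found through mutants hypersensitive to ABA in germination. AHG3 (AT3G11410, on chromosome 3 from 3583586 to 3585824) had the highest FPKM of the family in every library. It was listed at 57.5 and 75.4 FPKM in CLF RIP, against 52.7 and 53.5 FPKM in control RIP. The groups did not overlap, but CLF RIP replicate 1 lay much nearer to the control RIP libraries than to its own replicate. The AHG3 log2 fold change was 0.31 (SE 0.20, 95% interval -0.27 to 0.88), with a limma adjusted p of 0.401. That fold change is close to the median of all genes, and it was 0.11 without CLF RIP replicate 2 and -0.12 with structural RNA genes left out.

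AHG1 (AT5G51760, on chromosome 5 from 21026916 to 21029188) was listed at 0 in all 4 libraries. It acts mainly in seeds, where it works with the dormancy factor DOG1, and it is known for resisting most ABA receptors. The seed storage genes were near 0 in the same libraries. An exact 0 in such a table can also be a failed estimate, so no bound on its level is given.

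The HAI genes (highly ABA-induced) are known for their strong induction by ABA and low water potential. HAI2 (AT1G07430, on chromosome 1 from 2280835 to 2282828) showed the largest fold change of the 7. It was listed at 3.35 and 3.94 FPKM in CLF RIP, against 0.558 and 0.452 FPKM in control RIP. The groups lay far apart relative to the spread within each. Taking the whole span as transcript, these values correspond to at most 25.1 and 29.4 reads in the CLF RIP libraries and at most 9.78 and 7.69 reads in the control RIP libraries, so counting error is large for this gene. A separate locus of 75 bp with 2 reads also lay inside HAI2 in control RIP replicate 1, and its reads are not part of these values. The HAI2 log2 fold change was 1.62 (SE 0.19, 95% interval 1.07 to 2.18), with a limma adjusted p of 0.0724 that missed the threshold. On this scale the size depends on the pseudocount, since the control RIP values lay below 1 FPKM: it was 2.63 with a pseudocount of 0.1 and 0.65 with 5, which is below ABI1 at 1.11 and ABI2 at 0.94 with that pseudocount.

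HAI1 (AT5G59220, chromosome 5, bases 23894404 to 23896619) had 1.81 and 1.48 FPKM in CLF RIP, against 1.53 and 1.67 FPKM in control RIP. Its groups overlapped. The HAI1 log2 fold change was 0.02 (SE 0.19, 95% interval -0.52 to 0.57), with a limma adjusted p of 0.946. A difference of up to 0.57 higher or 0.52 lower lies within that interval. HAI1 also contained short loci under serial numbers in every library. The longest in each library spanned 199 and 161 bp at 28.9 and 69.3 FPKM in the CLF RIP, and 256 and 164 bp at 5.03 and 18.7 FPKM in the control RIP. Their spans differ between libraries, values of such short loci depend steeply on span, and the tables give no strand, so no fold is drawn from them. HAI2 over HAI1 was 1.85 and 2.66 in the CLF RIP libraries and 0.365 and 0.271 in the control RIP libraries, so the order of this pair differed between groups. The difference between these ratios was not tested.

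HAI3 (AT2G29380, chromosome 2, bases 12608702 to 12610167) had 0 and 0.436 FPKM in CLF RIP, against 0.185 and 0.0956 FPKM in control RIP. Scaled by what 1 read is worth in each library, the values stand as 0 and 2 in the CLF RIP libraries to 2 and 1 in the control RIP libraries, and by the span of the gene they are at most 2.29 reads. HAI3 was therefore at the edge of detection in all libraries, and a difference was not detectable at this depth.

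**Figure D2:**
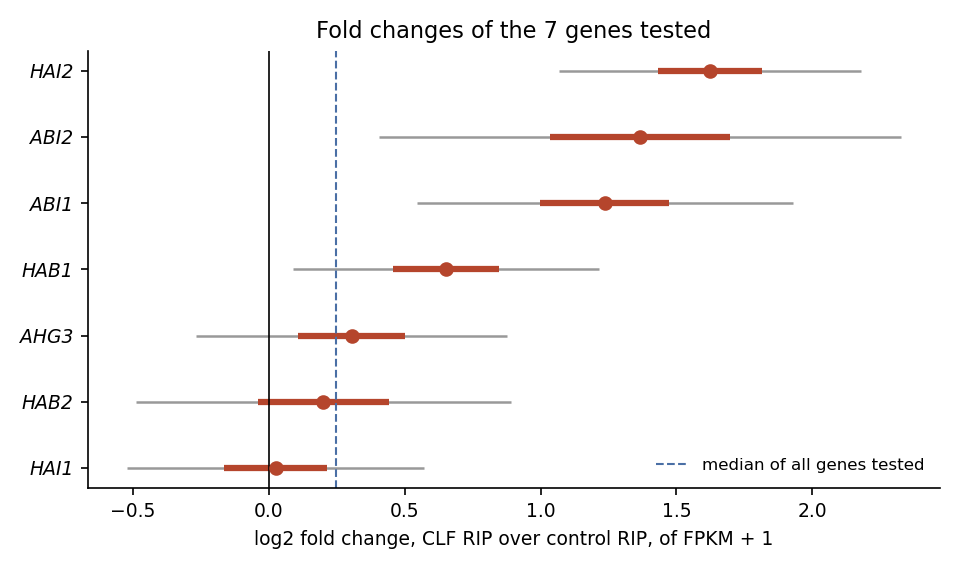
Log2 fold change of FPKM + 1, CLF RIP over control RIP, for the 7 genes tested, with the SE as a thick bar and the 95% interval as a thin bar. HAI2, ABI2 and ABI1 lie at 1.62, 1.37 and 1.24, HAB1 at 0.65, and the intervals of AHG3, HAB2 and HAI1 cross 0; the dashed line marks the median of all genes, 0.25.

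Relative to the median of all genes, the fold changes of HAI2, ABI2, ABI1 and HAB1 were 1.38, 1.12, 0.99 and 0.41 on the log2 scale. Those of AHG3, HAB2 and HAI1 were 0.06, -0.05 and -0.22. Other scalings moved the median of all genes itself, which was 0.019 for quantile normalization, 0.0085 for median-of-ratios scaling and -0.12 when structural RNA genes were left out. ABI1, ABI2, HAB1 and HAI2 lay above 0 under every alternative tried in which they were tested, while HAB2, AHG3 and HAI1 turned under at least 1 scaling.

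FPKM is a level per length, so the recovered levels of the genes can be compared within a library. Without input libraries this is no order of abundance in the plant. In all 4 libraries the order began with AHG3, then ABI1, then HAB2. HAB1 and ABI2 followed, with ABI2 above HAB1 in CLF RIP replicate 2 alone. This pair overlapped in the CLF RIP libraries and was apart, with HAB1 above, in the control RIP libraries. HAI2 stood above HAI1 in both CLF RIP libraries and below it in both control RIP libraries. Short loci inside HAI1 in every library, inside HAB1 in both control RIP libraries and inside HAI2 in control RIP replicate 1 were listed apart. They do not enter this order. HAI3 was listed below both in every library, and AHG1, listed at 0, has no place in this order.

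The 9 genes summed to 159 and 190 FPKM in CLF RIP, against 109 and 108 FPKM in control RIP, a ratio of the means of 1.61. Over all genes tested, the median log2 fold change was 0.25. The sum was not taken under other scalings. With structural RNA genes left out, the log2 fold changes of AHG3 and ABI1 were -0.12 and 0.82. AHG3 made up 36.1% and 39.6% of that sum in the CLF RIP libraries and 48.2% and 49.7% in the control RIP libraries. ABI1 made up 30.5% and 32.9% in the CLF RIP libraries and 23.2% and 19.1% in the control RIP libraries. ABI1 over AHG3 was accordingly 0.845 and 0.831 in the CLF RIP libraries and 0.481 and 0.385 in the control RIP libraries. A ratio within a library does not depend on how that library was scaled. These ratios did not overlap between groups, and their difference was not tested. Such a ratio does not tell which of the 2 genes differs.

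**Figure D3:**
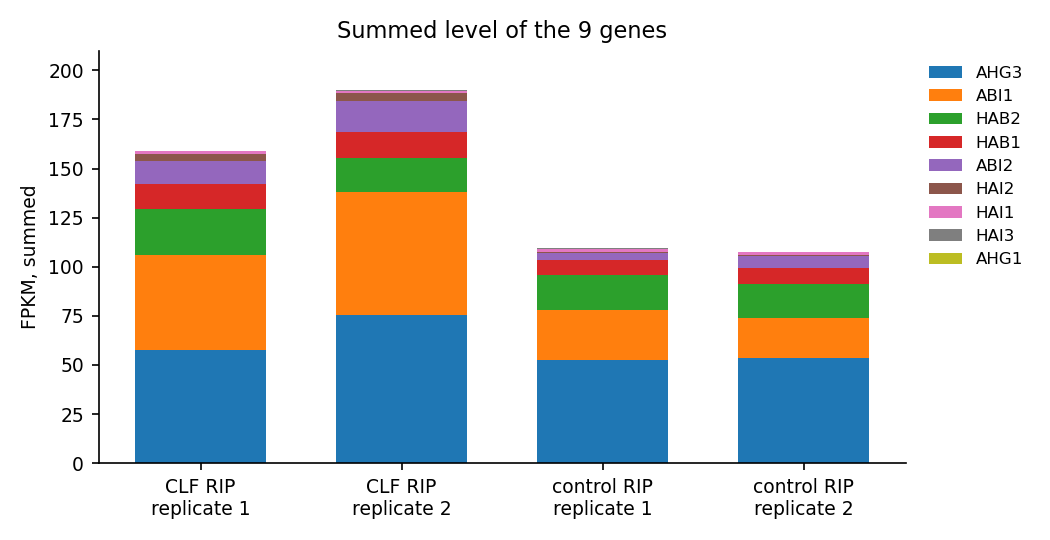
Summed FPKM of the 9 genes in each library, stacked by gene from AHG3 at the base, with the CLF RIP libraries on the left. The sum is 159 and 190 FPKM in the CLF RIP and 109 and 108 FPKM in the control RIP, and the layers that differ most in FPKM between the groups are ABI1 and AHG3.

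The genes around the phosphatases in the ABA pathway were compared in the same fit, in 7 lists of 74 genes, of which 49 were tested. Of these 49, 3 rose and 0 fell, beside 0.75% of all genes tested called higher and 0.622% lower, and all 3 that rose were ABA-induced targets. Lists are given by their counts and their median, beside the median of 0.25 over all genes.

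The ABA receptors, which inhibit the phosphatases once the hormone is bound, had the lowest median of the 7 lists. Of 14 genes 5 were tested, 0 passed, 1 lay above and 4 below 0, and the median log2 fold change was -0.49. PYL4 was listed at 30.8 and 30.4 FPKM in CLF RIP, against 76.5 and 83.6 FPKM in control RIP, without overlap. The PYL4 log2 fold change was -1.36 (SE 0.15), with a limma adjusted p of 0.0711. It passed under median-of-ratios scaling, at a limma adjusted p of 0.0480, and among genes under their own identifier alone, at 0.00381. In that last setting its fold change was the same, and a far larger share of genes passed. There 284 genes were called higher and 204 lower of 2462, against 111 and 92 of 14801 as reported. PYL7 was at 27.0 and 29.8 FPKM in CLF RIP, against 20.9 and 22.5 FPKM in control RIP. RCAR1, also known as PYL9, was at 7.40 and 4.07 FPKM in CLF RIP, against 10.0 and 7.31 FPKM in control RIP, and its groups overlapped.

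Among the SnRK2 kinases, of which SNRK2.2, SNRK2.3 and OST1 are the ABA-activated targets of the phosphatases, 9 of 10 were tested and 0 passed. The list had 5 genes above and 4 below 0, with a median of 0.24. SNRK2.3 was at 68.6 and 39.6 FPKM in CLF RIP, against 138 and 133 FPKM in control RIP (log2 fold change -1.36, limma adjusted p 0.136). The log2 fold changes of SNRK2.2 and OST1, given for their role after their values were seen, were -0.20 and 0.73. SNRK2.5 was listed at 0 in both CLF RIP libraries, against 1.56 and 1.27 FPKM in control RIP. SNRK2.4 was at 31.1 and 41.2 FPKM in CLF RIP, against 22.9 and 19.8 FPKM in control RIP. With SNRK2.5 set aside, the kinases tested still lay on both sides of 0.

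Of the 7 ABA transcription factor genes 5 were tested, 0 passed, and 4 lay above 0, with a median of 0.54. ABF1 was at 72.9 and 28.2 FPKM in CLF RIP, against 8.71 and 10.0 FPKM in control RIP, with the CLF RIP libraries far apart from each other. ABF4 was at 56.6 and 199 FPKM in CLF RIP, against 31.5 and 29.3 FPKM in control RIP. ABF3 was at 22.0 and 21.4 FPKM in CLF RIP, against 16.6 and 12.8 FPKM in control RIP. ABI5 was the 1 tested factor below 0, with a log2 fold change of -1.45. It was at 14.5 and 2.65 FPKM in CLF RIP, against 30.2 and 12.5 FPKM in control RIP, and its groups overlapped. ABI3 and ABI4, regulators of seed maturation and germination, were listed at 0 in both CLF RIP libraries and at no more than 0.0371 FPKM in the control RIP. ABI3 and ABI4 were named for their role, and ABI5 for its direction, after their values were seen.

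The ABA-induced targets had the highest median of the 7 lists. Of 14 genes 9 were tested, all 9 lay above 0, 3 rose and 0 fell, and the median was 1.46. The list was chosen with results of these samples known, so its direction is no independent evidence. The 3 that rose were LTI78, also called RD29A, at 115 and 116 FPKM in CLF RIP, against 5.05 and 6.38 FPKM in control RIP, and the dehydrin genes COR47 and ERD10. The limma adjusted p was 0.0340 for LTI78 and COR47 and 0.0366 for ERD10. Without a filter on low values, LTI78, COR47 and ERD10 missed the threshold, at limma adjusted p of 0.0627 to 0.0689. Of all 20515 genes tested there, only 4 were called higher and 3 lower. With the replicate number as a block they missed it at 0.213, where 0 of 14801 genes were called. These 2 settings therefore say little about the 3 genes. With 1 library left out hardly any gene passed, so those fits cannot decide it either. The log2 fold changes there were at least 3.97 for LTI78, 1.67 for COR47 and 1.45 for ERD10. ERD10 also missed the threshold with structural RNA genes left out, and both COR47 and ERD10 missed it without the trend and robust settings, at 0.0724 to 0.0797 by limma. NCED3, which catalyses the rate-limiting step of ABA synthesis, was at 9.46 and 9.60 FPKM in CLF RIP, against 2.70 and 2.64 FPKM in control RIP, with an adjusted p of 0.0724. It was named after its values were seen, as a gene of ABA synthesis in the list.

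The guard cell channels SLAC1 (listed as OZS1) and KAT1, which act under the pathway in stomatal closure and opening, were both higher in the CLF RIP without passing. OZS1 was at 4.62 and 7.44 FPKM in CLF RIP, against 3.64 and 2.37 FPKM in control RIP, and KAT1 was at 7.02 and 10.7 FPKM in CLF RIP, against 3.61 and 4.15 FPKM in control RIP. Both also belong to the guard cell markers above. Of 5 regulators of clade A PP2Cs, 3 were tested and 0 passed: PUB13 and AT1G67800 (RGLG5) encode ubiquitin ligases, and AT5G22090 (EAR1) encodes an enhancer of phosphatase activity. PUB13 was at 18.8 and 19.5 FPKM in CLF RIP, against 13.4 and 15.2 FPKM in control RIP, and AT5G22090 was at 10.9 and 12.1 FPKM in CLF RIP, against 9.73 and 10.5 FPKM in control RIP. AT1G67800 was at 15.2 and 13.6 FPKM in CLF RIP, against 35.9 and 10.9 FPKM in control RIP, so 1 library set its direction, and its log2 fold change of -0.45 became 0.37 without control RIP replicate 1.

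Other PP2C genes, from clades with roles outside the ABA receptor complex, served as a comparison within the superfamily. Of 22 genes 16 were tested, 10 lay above and 6 below 0, 0 passed, and the median was 0.22, close to that of all genes. At an unadjusted p under 0.05, 4 of 16 were higher and 1 lower, beside 17.0% of all genes tested higher and 24.7% in either direction. AT5G27930 was at 62.5 and 58.7 FPKM in CLF RIP, against 24.9 and 20.6 FPKM in control RIP (log2 fold change 1.38, limma adjusted p 0.0879). AT4G38520 was at 30.4 and 30.5 FPKM in CLF RIP, against 17.5 and 17.3 FPKM in control RIP, and AT3G17090 was at 34.9 and 30.1 FPKM in CLF RIP, against 20.1 and 19.0 FPKM in control RIP. The log2 fold changes of AT4G38520 and AT3G17090 were 0.77 and 0.70. A fold change as large as those of ABI1 and ABI2 thus occurred outside clade A for AT5G27930 alone of these genes. The difference between clade A and the other clades was not tested.

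**Figure D4:**
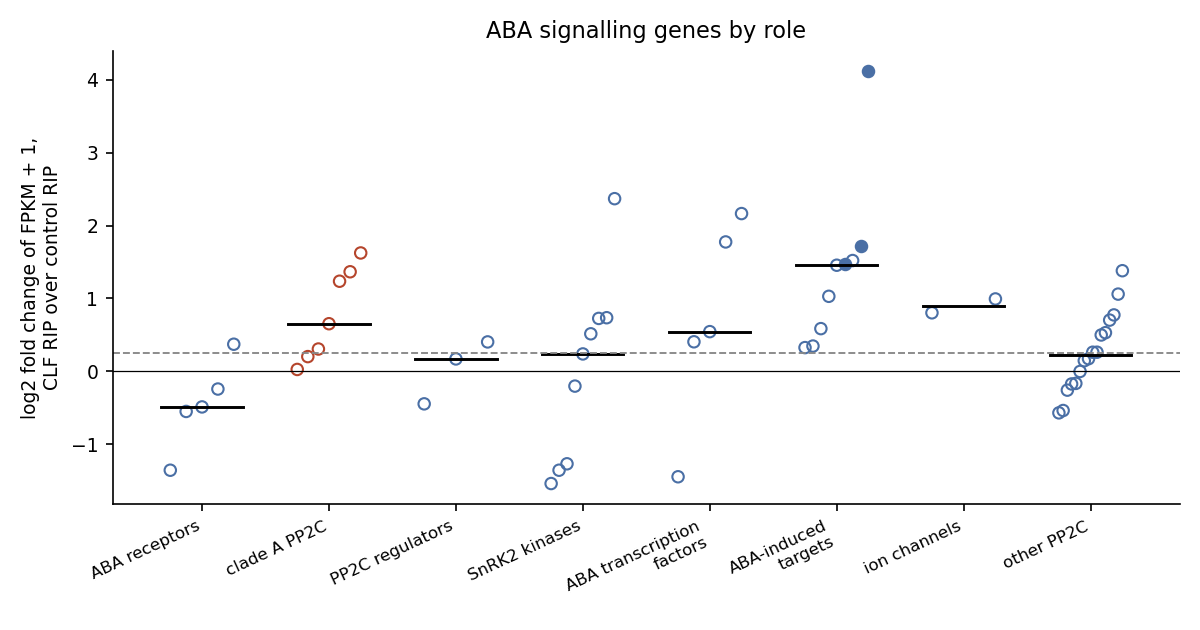
Log2 fold change of FPKM + 1, CLF RIP over control RIP, of every tested gene in the clade A PP2C family (red) and in 7 lists of related genes (blue), in columns by role, with filled points past the adjusted threshold and a black line at each median. The medians are -0.49 for ABA receptors, 0.65 for clade A PP2Cs and 1.46 for ABA-induced targets, and the only filled points are 3 ABA-induced targets; the dashed line marks 0.25.

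The genes next to the phosphatase genes on the chromosome lay on both sides of 0. Of 18 flanking protein-coding genes 12 were tested, 5 lay above and 7 below 0, 0 passed, and the median log2 fold change was -0.25. Over all genes tested, 63.2% lay above 0. MEK1, whose locus overlaps that of ABI1 by 21 to 51 bp at 1 end, was at 13.1 and 12.6 FPKM in CLF RIP, against 24.6 and 16.3 FPKM in control RIP, the direction opposite to ABI1. Both genes flanking HAB1 also lay opposite to it. AT1G72760 averaged 0.836 ± 0.0496 FPKM in CLF RIP, against 2.23 ± 0.216 FPKM in control RIP (SD, n = 2 each). It passed the filter through its control RIP values alone, so its direction was set by the filter, and it counts among the 7 below 0. AT1G72790 was at 3.17 and 2.80 FPKM in CLF RIP, against 5.57 and 5.08 FPKM in control RIP. AT1G07440, next to HAI2, lay in the same direction as HAI2, at 19.3 and 12.8 FPKM in CLF RIP, against 5.52 and 7.84 FPKM in control RIP. AT5G51770, next to AHG1, was at 7.47 and 6.15 FPKM in CLF RIP, against 3.12 and 3.52 FPKM in control RIP. At a limma unadjusted p under 0.05 were 4 of the 12 tested, beside 24.7% of all genes tested in either direction. These were AT1G72760, AT1G72790, AT1G07440 and AT5G51770. The flanking genes were picked by position after the tables were seen.

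HAI2, the gene with the smallest unadjusted p of the family, was compared with all genes tested by the distance between their log2 values over the 4 libraries, each gene centred on its own mean. The 5 nearest genes with a symbol were STT3B, CORI3, TPS10, MMZ3 and COR47, at distances of 0.0747 to 0.119. STT3B was at 23.6 and 27.1 FPKM in CLF RIP, against 7.36 and 6.85 FPKM in control RIP. COR47, one of the ABA-induced targets, was at 289 and 310 FPKM in CLF RIP, against 91.7 and 88.0 FPKM in control RIP. Within the family ABI1 was nearest to HAI2, at a distance of 0.428, and HAI1 was farthest, at 1.63. With 4 libraries in 2 groups, such a distance mostly restates the fold change.

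**Figure D5:**
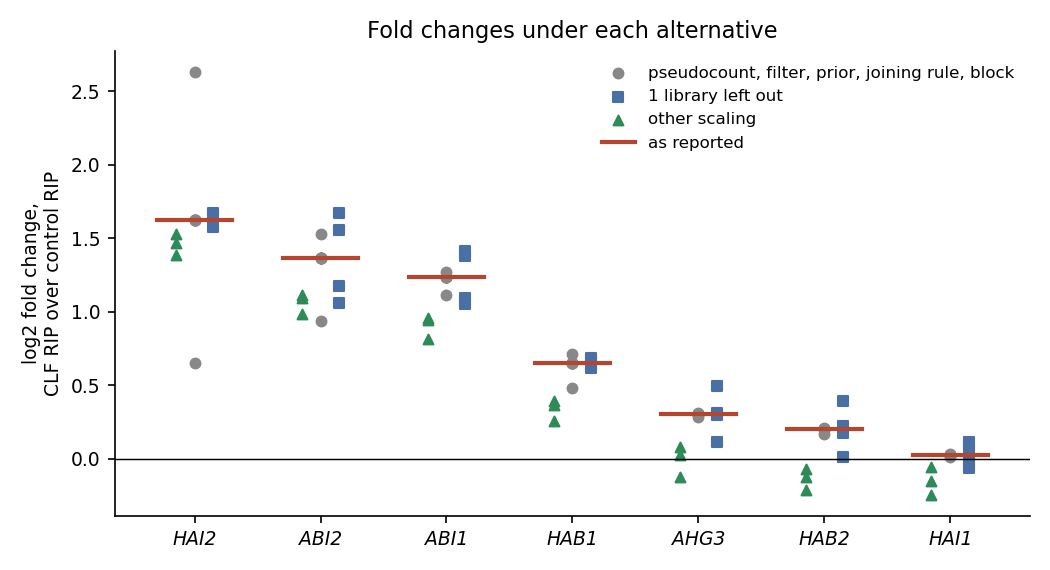
Log2 fold change, CLF RIP over control RIP, of the 7 genes tested, as reported (red line), with another pseudocount, filter, prior, joining rule or block (grey), with 1 library left out (blue) and under another scaling (green). HAI2, ABI2, ABI1 and HAB1 stay above 0 under every alternative plotted, and HAB2, AHG3 and HAI1 cross it, with the widest range for HAI2 from 0.65 to 2.63.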

How the data were processed

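RNA from anti-Myc precipitates of 2 CLF RIP and 2 control RIP libraries was measured, and groups were taken from the sample labels. The authors deposited 1 table of FPKM values per library. Per the submitters' processing notes, Trimmomatic, TopHat2 2.0.10 and TAIR10 were used, but the program behind the FPKM values is not stated there.

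Many loci carry serial numbers in place of a gene identifier, which differ between libraries. A gene was read from the locus under its own identifier or else from the serial locus of at least 300 bp with the best reciprocal overlap of at least 0.8. The gene's span was that of its own-identifier locus in any library, or the RefSeq table's where there was none (ABI1, HAB1, HAB2 and AHG3). Of the 36 values of the 9 phosphatase genes, 14 were under the gene's own identifier and 22 under serial numbers, with an overlap of at least 91.2%. A serial locus can include reads of transcripts other than the annotated ones. 198 genes were left out because a serial locus reached the value of 1 read on 75 bp. The joining rule was settled after the tables and the fit under an earlier rule had been seen.

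After adding 1 FPKM and taking log2, values entered limma (version 3.58.1, under R 4.3.3), as lmFit followed by eBayes with its trend and robust settings. Genes needed 1 FPKM or more in 2 or more libraries, which 14801 reached. Tests were two-sided, adjusted after Benjamini and Hochberg over these genes, and read at 0.05. Fold changes on this scale understate those of low genes. Scaling depth was estimated by treating loci of about 1 read as whole reads, and 65.9% to 69.5% of loci with 0.5 to 1.5 reads came within 0.02 of 1. Counts were not recovered, so no count test was run. On simulated data for this comparison, with 14801 genes, none of 66 genes set to a 2-fold change was found (0 calls), while 6 of 69 were found at 4-fold and 49 of 65 at 16-fold. False calls numbered 5. The folds were of FPKM + 1, no other genes were changed, and the noise was normal with the fit's own spread, without read counting. With so few genes changed, the adjusted threshold is stricter than in data where 24.7% of genes had a limma unadjusted p under 0.05. These rates need not hold for the data.

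The phosphatase genes and the lists were chosen with earlier results of these data known. The genes named were all 9 phosphatase genes, CLF, the 3 genes of each list with the smallest unadjusted p, list genes past the threshold, and the 5 genes with a symbol nearest to HAI2. Exceptions are stated beside their values. The alternatives were other pseudocounts, filters, scalings, priors and joining rules, the replicate number as a block, and each library left out. Samples that share a replicate number did not deviate together (r = 0.0194 over genes for the difference between replicates), and the labels do not pair them. Promoter and protein sequences were not analysed here.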

Additional observations from a re-analysis of the deposited data

How the results depend on the processing

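None of the phosphatase genes passed the threshold by limma under any of the 17 alternatives, though none could be tested when every library had to list a gene by its identifier. Hardly any gene at all passed without a filter, with the block or with 1 library left out. Those settings therefore say little about the family. HAI2 was not tested with a mean of at least 5 FPKM or without either CLF RIP library. Its adjusted p ranged from 0.0718 to 0.424. The log2 fold change ranged over the alternatives from 0.65 to 2.63 for HAI2, 0.94 to 1.67 for ABI2, 0.82 to 1.42 for ABI1 and 0.26 to 0.71 for HAB1.

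Directions turned for genes near 0. With quantile normalization, median-of-ratios scaling and structural RNA genes left out, in that order, HAB2 was -0.12, -0.070 and -0.21, HAI1 was -0.056, -0.15 and -0.24, and AT5G22090 was -0.13, -0.092 and -0.23. With structural RNA genes left out, AHG3 was -0.12, PYL7 was -0.046 and PUB13 was -0.0064. With 1 library left out, HAI1 ranged from -0.064 (without CLF RIP replicate 1) to 0.11, and was also below 0, at -0.015, without control RIP replicate 1. AT1G67800 ranged from -1.26 to 0.37, above 0 only without control RIP replicate 1. The median of all genes was 0.25 as reported. Quantile normalization and median-of-ratios scaling brought it near 0, to 0.019 and 0.0085. Leaving out structural RNA genes took it below 0, to -0.12, so AHG3 lay near the median there. Of the genes called, 54.7% were higher as reported, against 45.1%, 41.2% and 35.4% under the 3 scalings in the same order.

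Over all genes, 111 were called higher and 92 lower as reported. The counts were 42 and 45 with a pseudocount of 5, 4 and 3 without a filter, 44 and 40 with a mean of at least 5 FPKM, 40 and 27 without trend and robust, and 284 and 204 under own identifiers, where fewer genes were tested. 64 were higher with structural RNA genes left out. With spans of the RefSeq table for all genes, chosen after seeing the data, the counts were 101 and 87 with the best overlap and 99 and 84 with ambiguous matches dropped. With the replicate number as a block, which the labels do not support as a pairing, limma called 0 higher and 0 lower, and 2712 genes had an unadjusted p under 0.05. With 1 library left out, the lone library being assumed to vary like the other group, limma called 0 to 1 higher and 0 to 4 lower, with 1645 to 3567 genes at an unadjusted p under 0.05.

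Of the pathway lists, 3 genes were called higher and 0 lower as reported. The higher count was 0 without a filter, 0 with the block and 0 with any 1 library left out. It was 2 under both earlier joining rules, where COR47 was not tested, and 2 with structural RNA genes left out, where ERD10 did not pass. Without trend and robust it was 1. With an overlap of 0.9 it was 1, LTI78, while COR47 and ERD10 were not tested. Under own identifiers it was 1 of 4 list genes tested, and none of LTI78, COR47 and ERD10 was among these 4. The lower count was 1 with median-of-ratios scaling and 1 under own identifiers, both PYL4. The cause of the other changes was not tested.

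Depth limits the low genes most. HAI1, HAI2 and HAI3 rest on few reads. Separately, with 2 libraries a group the adjusted test found 0 of 66 simulated 2-fold changes and 6 of 69 simulated 4-fold changes. That simulation held no read counting, so it does not measure the effect of depth. It also held few changed genes, so its rates need not hold for the data.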
